A study of Mus musculus with 78 samples.

Results

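STAT5B, the transcription factor through which growth hormone acts on liver genes, was followed here together with 9 genes whose level in mouse liver depends on how growth hormone is secreted. The members were taken by name. CYP2D9, CYP2J5, CYP4A12A, ELOVL3 and EGFR are male-biased genes that need pulses of the hormone, and CYP2A4, CYP3A41A, CYP3A41B and SULT3A1 are female-biased genes that the pulses repress. These were 10 of the 2755 genes of the panel, and 10 of 10 were among the 2205 genes that the authors' filter on low values kept and that were tested.

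The libraries came from livers of male B6C3F1 mice in a stop-exposure study of dichloroacetic acid (DCA), a by-product of water chlorination that causes liver tumours in mice. RNA was read from sections of formalin-fixed, paraffin-embedded blocks with TempO-Seq, in which pairs of detector probes are joined on their transcript and counted, using the Mouse S1500+ panel with the most abundant transcripts attenuated. Treatment began at 4 weeks of age, with 3.5 g/L DCA in the drinking water, and each group name gives the treatment and then the week of collection. The comparisons ask how the members stood while DCA was given, and after it was withdrawn, against controls of the same age.

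S1 mice drank DCA for 10 weeks and then water, and were collected at week 10 (S1-10), after 22 weeks of water (S1-32), after 47 weeks (S1-57) and after 68 weeks (S1-78). S2 mice drank DCA for 32 weeks and were collected then (S2-32) or after 46 weeks of water (S2-78). S3 mice drank it for 57 weeks and were collected then (S3-57) or after 21 weeks of water (S3-78). Direct-78 mice drank DCA for all 78 weeks, and Control-10, Control-32, Control-57 and Control-78 drank deionized water throughout.

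Of 78 deposited libraries, 1 per mouse and 6 per group, the 68 that the authors kept in their normalized table were used. That left 4 in Control-10, S2-78 and S3-78, 5 in S3-57, 3 in Direct-78 and 6 in each other group. Total counts per library ran from 1233543 to 2206672 in Control-10, from 721372 to 2731045 in Control-32, from 2223516 to 4153377 in Control-57 and from 2098777 to 4285848 in Control-78. In the S1 groups they ran from 1441966 to 2290453 (S1-10), 2979117 to 3914572 (S1-32), 919268 to 3032863 (S1-57) and 1665464 to 3301147 (S1-78). S2-32 had 1484484 to 3049702 counts, S2-78 had 1187668 to 2475996, S3-57 had 1123317 to 2030701 and S3-78 had 1154431 to 1936370. Direct-78 had the lowest totals, 541245 to 699825. Every library of Direct-78, S3-78 and S3-57 was shallower than all controls of its week, and every S1-32 library was deeper, which leaves depth and treatment inseparable in these groups. A fit with the total count as a covariate extrapolates there from the libraries of other groups, so its values below show how far a result depends on depth and are not estimates at equal depth.

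In male rodents the pituitary releases growth hormone in pulses separated by intervals with almost none, while in females its level is nearly continuous. Each pulse acts through the growth hormone receptor and the kinase JAK2 to phosphorylate STAT5B, which then enters the hepatocyte nucleus, and this on-and-off signal keeps male-biased liver genes on and many female-biased genes off. Male mice that lack STAT5B, or whose pulses are abolished, lose much of the male pattern and express female-biased genes in liver.

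The members code for unlike proteins. CYP2D9 and CYP2A4 are steroid-hydroxylating cytochromes P450, CYP2J5 and CYP4A12A are cytochromes P450 that oxidise arachidonic acid, and CYP3A41A and CYP3A41B are cytochromes P450 of female liver. ELOVL3 elongates very long-chain fatty acids, EGFR is the epidermal growth factor receptor, and SULT3A1 is a sulfotransferase. On mouse build GRCm38.p6 the genes lie at chr11:100780731-100859004 (STAT5B), chr15:82452377-82456827 (CYP2D9), chr4:96627432-96664171 (CYP2J5), chr4:115299046-115332815 (CYP4A12A), chr19:46131897-46135694 (ELOVL3) and chr11:16752203-16913907 (EGFR). The female-biased genes lie at chr7:26307192-26315088 (CYP2A4), chr5:145694049-145720136 (CYP3A41A), chr5:145558664-145584732 (CYP3A41B) and chr10:33851020-33879475 (SULT3A1).

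Several members have close relatives, and the probe sequences were not used here, so which relative a probe counts is uncertain. Of all 50-base windows of the CYP3A41A transcript, 98.6% also occur in another gene, 93.7% in CYP3A41B alone. The share was 48.9% for CYP4A12A (with CYP4A12B), 38% for CYP2A4 (36.1% with CYP2A5), 29% for CYP2D9, 11.8% for STAT5B (with STAT5A), 6.15% for SULT3A1 (with SULT3A2), 0.174% for CYP2J5, 0.167% for EGFR and 0% for ELOVL3. Values for the CYP3A41 pair are therefore read as values of 2 probes, not of 2 separate genes. Because probes differ in efficiency and abundant transcripts were attenuated, levels are compared between libraries and not between genes.

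RefSeq promoters, from 250 bases before to 50 after a start listed for the gene on GRCm38.p6, were analysed for 8 of the 10 members, and those of CYP4A12A and ELOVL3 were not analysed here. They were searched on both strands for TTCNNNGAA, the core sequence that STAT5 proteins bind, which 8.3% of 32841 mouse promoters of this length hold. Of the 8 members, 1 held it, SULT3A1, with its match starting at position -109 from the start that the promoter table uses, and its letters are in capitals here. For SULT3A1 and STAT5B that start lies far inside the gene span given above, and for CYP2J5 and CYP3A41B it lies just inside, so the window printed for SULT3A1 is not upstream of the outermost start. Printed 5′ to 3′ are the promoter of this gene, those of CYP2A4 and CYP2D9, which passed the test in the opposite direction to each other in week-78 livers, and those of the CYP3A41 pair. The windows are chr10:33857472-33857771 on the plus strand (SULT3A1), chr7:26306942-26307241 plus (CYP2A4), chr15:82452127-82452426 plus (CYP2D9), chr5:145720087-145720386 minus (CYP3A41A) and chr5:145584681-145584980 minus (CYP3A41B).
SULT3A1: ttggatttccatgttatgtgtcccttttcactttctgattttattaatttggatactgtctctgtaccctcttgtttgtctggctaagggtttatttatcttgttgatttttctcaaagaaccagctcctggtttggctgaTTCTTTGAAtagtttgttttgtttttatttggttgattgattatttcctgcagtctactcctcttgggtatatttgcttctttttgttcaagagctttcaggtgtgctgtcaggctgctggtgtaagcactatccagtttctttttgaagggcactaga
CYP2A4: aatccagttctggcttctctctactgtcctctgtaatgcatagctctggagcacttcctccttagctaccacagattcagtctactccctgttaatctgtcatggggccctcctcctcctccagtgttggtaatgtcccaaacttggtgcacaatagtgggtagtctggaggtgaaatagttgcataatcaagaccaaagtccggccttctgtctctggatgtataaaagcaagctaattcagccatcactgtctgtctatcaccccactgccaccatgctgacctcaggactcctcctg
CYP2D9: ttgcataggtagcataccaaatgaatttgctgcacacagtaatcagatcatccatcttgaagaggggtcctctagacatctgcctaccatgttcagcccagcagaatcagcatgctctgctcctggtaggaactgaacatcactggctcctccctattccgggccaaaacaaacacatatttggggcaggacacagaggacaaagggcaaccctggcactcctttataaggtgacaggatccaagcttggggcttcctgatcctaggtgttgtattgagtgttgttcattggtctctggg
CYP3A41A: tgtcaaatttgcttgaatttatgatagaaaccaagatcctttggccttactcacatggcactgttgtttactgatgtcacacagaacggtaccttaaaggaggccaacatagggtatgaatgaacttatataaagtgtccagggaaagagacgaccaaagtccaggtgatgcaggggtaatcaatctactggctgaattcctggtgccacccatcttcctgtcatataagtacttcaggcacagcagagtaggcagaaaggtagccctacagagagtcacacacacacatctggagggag
CYP3A41B: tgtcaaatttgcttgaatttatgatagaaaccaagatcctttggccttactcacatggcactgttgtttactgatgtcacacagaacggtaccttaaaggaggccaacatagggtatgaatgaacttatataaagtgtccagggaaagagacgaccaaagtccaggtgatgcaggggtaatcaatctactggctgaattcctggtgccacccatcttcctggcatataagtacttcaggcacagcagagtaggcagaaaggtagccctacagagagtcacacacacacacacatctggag
The promoters of the CYP3A41 pair aligned with 295 identical bases, 1 substitution and 8 gap bases over 300, so their regulatory sequence near the start is almost the same. A match is a description of letters and not of a bound site, and a window without one says nothing of STAT5B binding elsewhere.

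The liver label was checked against hepatocyte markers, of which 5 of 8 were tested (APOA1, TTR, CPS1, ASS1 and G6PC) and none was at 0 in any library. Their summed level, in CPM (counts scaled to a common library size with TMM factors), had a group median between 26694 in Direct-78 and 67599 in S2-32, with TTR the most abundant. Individual libraries stood apart. Control-10 mouse 68 had a hepatocyte sum of 8068 CPM, the lowest of all 68 libraries, with ELOVL3 at 0 and EGFR at 8.85 CPM. AFP, the fetal liver and liver tumour marker and the only 1 of its list of 5 tested, was above 500 CPM in 4 libraries: 551 in S1-57 mouse 27, 2177 in S1-78 mouse 31, 1952 in S3-78 mouse 55 and 814 in S3-78 mouse 59. The next highest AFP value was 137 CPM, in S3-57 mouse 54. Exocrine pancreas markers (3 of 7 tested, CEL most abundant) summed to 2260 CPM in S1-10 mouse 17, 1376 in S1-32 mouse 19, 12461 in S1-78 mouse 36 and 8810 in S2-78 mouse 47. For members, results that touch these libraries are given with and without them where the call moved. Values that moved with no change of call are not all given. Both sets of libraries were picked after seeing the data. Leaving out a set meant fitting all 13 groups again, so calls also moved in comparisons that hold none of these libraries. The libraries with high AFP lie only in S1-57, S1-78 and S3-78.

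Changes that passed were found in the week-78 livers of mice given DCA for 57 or 78 weeks, in S1-32 and, for SULT3A1 alone, in S3-57. SULT3A1, higher in the long-exposure groups, was lower in S1-32, after 10 weeks of DCA. Without the libraries with high AFP 0 of 10 members passed in S3-78. With the log2 total count as a covariate 0 passed in S1-32, S3-57 and Direct-78. In S3-78, SULT3A1 and CYP2A4 were higher and ELOVL3 and CYP2D9 lower than in Control-78. In Direct-78, SULT3A1 and CYP2A4 were higher and ELOVL3 lower. In S1-32, 22 weeks after DCA was withdrawn, STAT5B was higher and SULT3A1 and the CYP3A41B probe lower than in Control-32. A gene was called at a Benjamini-Hochberg adjusted p of 0.05 or less over the 2205 genes in an edgeR quasi-likelihood test (2-sided) and a fold change beyond 1.5. The Control-78 libraries serve Direct-78, S3-78, S2-78 and S1-78, while S1-57 and S3-57 share Control-57, and S1-32 and S2-32 share Control-32.

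Counted against all tested genes, 4 of 10 members were called in S3-78 (13.3% of all genes were), 2 higher (5.85% of all genes) and 2 lower (7.48%). Direct-78 had 3 of 10 (24.4% of all genes), a share near that of all genes, 2 higher (5.71%) and 1 lower (18.7%). Of the male-biased members 2 of 5 passed in S3-78 and 1 of 5 in Direct-78, and of the female-biased members 2 of 4 in each. S1-32 also had 3 of 10 (29.1%), 1 higher (11.9%) and 2 lower (17.2%), again near the share of all genes, and S3-57 had 1 of 10 (6.39%), higher (2.86%). In S1-10 edgeR called 0 of 10 (5.49% of all genes, 1.09% higher and 4.4% lower), with 3 at an unadjusted p under 0.05 and 0 by DESeq2. S2-32 had 0 (10.7% of all genes, 3.45% higher and 7.21% lower), with 1 unadjusted and 0 by DESeq2, and S2-78 had 0 (1.63%, 0.816% in either direction), also with 1 unadjusted and 0 by DESeq2. S1-57 had 0 by edgeR (1.59%, 0.363% higher and 1.22% lower), 2 unadjusted and 1 by DESeq2, STAT5B. S1-78 had 0 by edgeR (1.81%, 0.998% higher and 0.816% lower), 1 unadjusted and 1 by DESeq2, CYP2A4. The median log2 change over the 5 male-biased members was -2.03 in S3-78 and -1.60 in Direct-78, beside 0.07 and -0.33 over all tested genes. Over the 4 female-biased members the medians were 2.67 and 2.30. The choice of scaling moved the median of all genes in Direct-78 from -0.33 (TMM) to 0.07 (RLE) and 0.12 (upper quartile), in S3-78 from 0.07 to 0.27 and 0.34, in S2-78 from 0.06 to 0.27 and 0.24, and in S1-32 from 0.05 to -0.07 and -0.24.

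**Figure D1:**
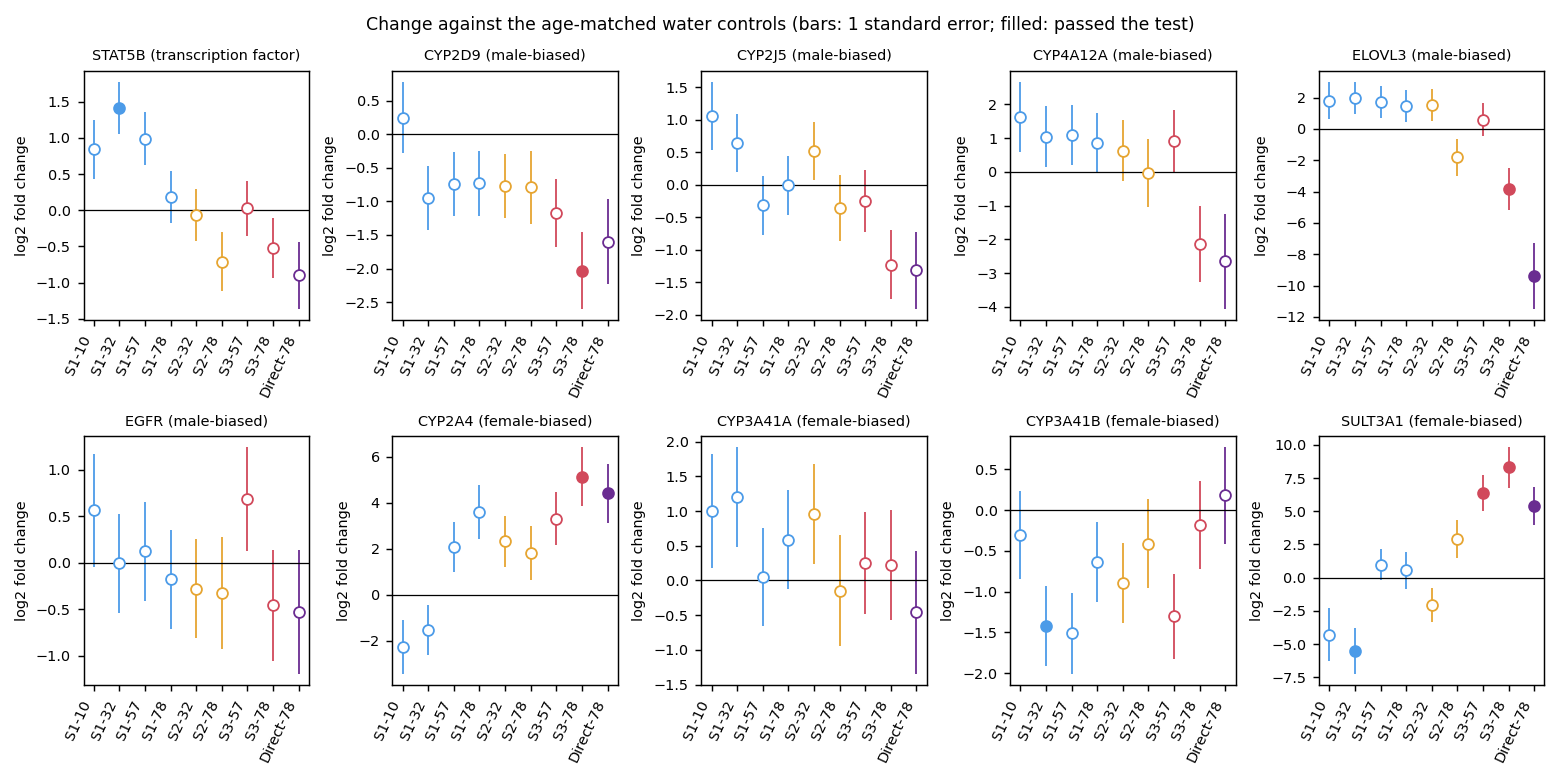
Log2 fold change of each member (1 panel each) in the 9 treated groups against age-matched controls, from the edgeR fit, with bars of 1 standard error; filled points passed the test, and colours are blue for S1, orange for S2, red for S3 and purple for Direct. SULT3A1 and CYP2A4 passed upward in S3-78 and Direct-78, where ELOVL3 passed downward.

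STAT5B was most abundant in S1-32, with a lowest, median and highest value of 157, 176 and 211 CPM, against 14.7, 62.4 and 147 CPM in Control-32. The means were 181 ± 21.3 CPM (SD, n = 6) and 67.7 ± 46.2 (n = 6), and 6 of 6 S1-32 livers were above every control of their age. STAT5B was higher in S1-32 by a log2 fold change of 1.41 (SE 0.36, edgeR, Benjamini-Hochberg adjusted p = 0.0041). The call was lost when all deposited libraries were used (1.37, adjusted p = 0.0544) and with the log2 total count as a covariate (0.68, adjusted p = 0.271). Over all settings the adjusted p ran from 0.000592 to 0.271. In S1-10 the values were 141, 150 and 156 CPM, again above all 4 Control-10 livers (98.5, 77.5, 66 and 91.7 CPM), but the edgeR test did not pass (log2 0.84, SE 0.41, Benjamini-Hochberg adjusted p = 0.225) unless only the compared groups were fitted (0.79, 0.0273). In S1-57 it did not pass (log2 0.99, adjusted p = 0.156) and was called by DESeq2 (1.07, 0.0438) and with the log2 total count as a covariate (1.33, 0.00725).

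The order of STAT5B by group median was S1-32 (176 CPM), S1-10 (150), Control-78 (99.9), S1-78 (95.8), S1-57 (84.8), Control-10 (84.6), S2-32 (67.4), Control-32 (62.4), Control-57 (55.3), S2-78 (47.6), Direct-78 (45.9), S3-57 (42.1) and S3-78 (40.7). S1-32 did not overlap S1-10 and S1-10 did not overlap Control-78, its neighbours by median, while each later neighbour overlapped the next. S1-57, further down, ran from 37 to 199 CPM and overlapped both S1-32 and S1-10. In Direct-78 STAT5B was 41.5, 51.3 and 45.9 CPM and in S3-78 it was 22.5, 136, 36.6 and 44.9 CPM, against 47.9, 99.9 and 109 CPM (lowest, median, highest) in Control-78. Neither group passed the edgeR test (log2 -0.90, SE 0.46, Benjamini-Hochberg adjusted p = 0.14 in Direct-78; log2 -0.52, SE 0.41, adjusted p = 0.402 in S3-78), and 1 S3-78 liver, mouse 56, was above every control. Without mouse 56 the S3-78 value was -1.24 and called (0.0388).

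**Figure D2:**
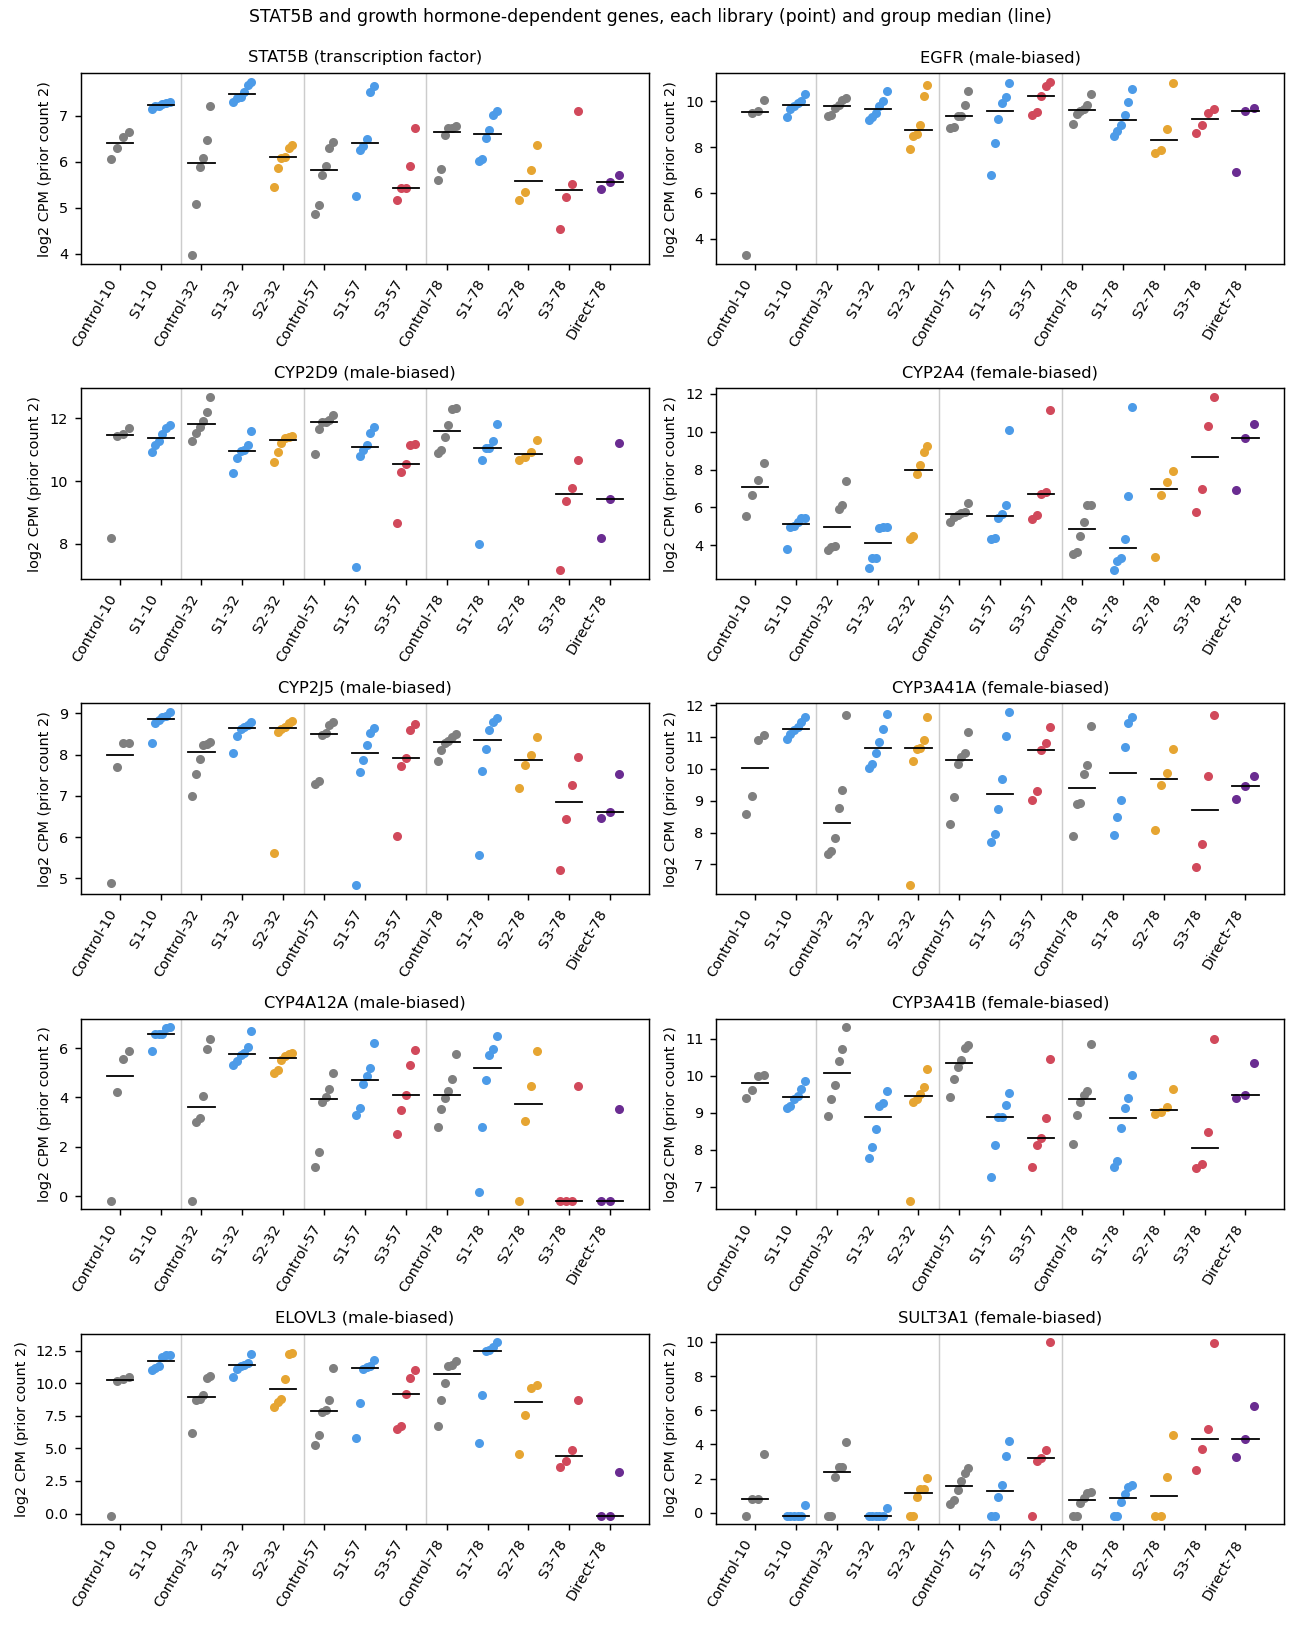
Level of each member (1 panel each) as log2 CPM with a prior count of 2, by group, with a point for each of the 68 kept libraries and a line at the group median; colours are grey for controls, blue for S1, orange for S2, red for S3 and purple for Direct. ELOVL3 lies at the bottom of its panel in Direct-78, and SULT3A1 is highest in 1 library each of S3-57 and S3-78.

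Among the male-biased genes, ELOVL3 fell furthest. It was 0, 0 and 8.11 CPM in Direct-78 (0, 0 and 6 counts) and 10.7, 15.2, 28.6 and 429 CPM in S3-78, against 106, 1802 and 3388 CPM in Control-78. All 3 Direct-78 livers and 3 of 4 S3-78 livers were below every control of their age, while S3-78 mouse 60 (429 CPM) lay within the control range. The fitted log2 fold change was -9.37 in Direct-78 (SE 2.11, edgeR, Benjamini-Hochberg adjusted p = 0.00155) and -3.83 in S3-78 (SE 1.33, adjusted p = 0.0428). With 2 of 3 libraries at 0 counts, the size of the Direct-78 value rests on the 6 counts of mouse 66. The value was -14.93 without mouse 66, -8.70 without mouse 64 and -8.62 without mouse 65, called each time. Without mouse 66 all libraries left in the group were at 0, so that size depends on the prior count. With the log2 total count as a covariate the Direct-78 value was -6.18 and not called (adjusted p = 0.173; the range over settings was 5.74e-09 to 0.173).

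The S3-78 call of ELOVL3 rested on single libraries. It was lost without S3-78 mouse 55 (-3.44, adjusted p = 0.136), mouse 56 (-3.39, 0.105) or mouse 59 (-3.50, 0.127), and without Control-78 mouse 87 (-3.68, 0.0636), mouse 89 (-3.68, 0.0596) or mouse 90 (-3.51, 0.0739). Without mouse 60 the value was -6.55 and called (adjusted p = 0.00688). It was also lost with upper-quartile factors (-3.52, 0.0516), with only the compared groups fitted (-3.85, 0.0621), with the log2 total count as a covariate (-1.74, 0.53) and without the libraries with high AFP (-2.95, 0.371).

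The order of ELOVL3 by group median was S1-78 (5844 CPM), S1-10 (3393), S1-32 (2704), S1-57 (2306), Control-78 (1802), Control-10 (1234), S2-32 (867), S3-57 (589), Control-32 (498), S2-78 (493), Control-57 (230), S3-78 (21.9) and Direct-78 (0). Neighbours overlapped at every step but the last, since S3-78 and Direct-78 did not overlap each other. The 4 groups that drank DCA for 10 weeks headed the order, yet none passed the edgeR test against its own controls (log2 1.48 to 1.97; Benjamini-Hochberg adjusted p = 0.135 to 0.546). With only the compared groups fitted, ELOVL3 passed in S1-32 (1.95, 0.0155). In these groups 6 of 6 livers in S1-10, 5 of 6 in S1-32, 3 of 6 in S1-57 and 4 of 6 in S1-78 were above every control of their age, and the livers with high AFP were lowest, at 54.7 CPM (S1-57 mouse 27) and 42.5 CPM (S1-78 mouse 31).

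CYP2D9 was 142, 881, 666 and 1618 CPM in S3-78 and 689, 293 and 2353 CPM in Direct-78, against 1897, 3096 and 5112 CPM (lowest, median, highest) in Control-78. All 4 S3-78 livers and 2 of 3 Direct-78 livers were below every control. It fell in S3-78 by a log2 fold change of -2.03 (SE 0.57, edgeR, Benjamini-Hochberg adjusted p = 0.0123) and did not pass in Direct-78 (-1.60, SE 0.63, adjusted p = 0.0524). The S3-78 call was lost without mouse 55 (-1.68, 0.0727), without both libraries with high AFP (-1.45, 0.173) and with all deposited libraries (-1.48, 0.0623). Its adjusted p ran from 0.00322 to 0.173 over settings. In Direct-78 it was gained without mouse 66 (-2.75, 0.0147), with all deposited libraries (-1.88, 0.0112), with the log2 detected genes as a covariate (-1.96, 0.0274) and without the libraries with high AFP (-1.49, 0.0218). In S1-32 CYP2D9 did not pass (-0.95, 0.12) but was called with upper-quartile factors (-1.24, 0.0375), by DESeq2 (-1.07, 0.0466), with only the compared groups (-0.99, 0.0213) and without the libraries with high AFP (-1.02, 0.0322). No library with high AFP is in Direct-78, S1-32 or their controls, so these calls moved through the fit shared by all groups. CYP2D9 medians were highest in the control groups of weeks 57 (3769 CPM), 32 (3582), 78 (3096) and 10 (2815) and lowest in S3-78 (774) and Direct-78 (689), with every neighbour in the order overlapping the next.

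CYP2J5, CYP4A12A and EGFR were called in no group against its controls. CYP2J5 was 86.8, 247, 36 and 153 CPM in S3-78 and 87.9, 97.2 and 182 CPM in Direct-78, against 229, 315 and 359 CPM in Control-78, and 3 of 4 and 3 of 3 livers were below every control. Its log2 fold changes were -1.23 (SE 0.53, edgeR, Benjamini-Hochberg adjusted p = 0.11) and -1.32 (SE 0.59, adjusted p = 0.0925). The S3-78 value passed without mouse 56 (-1.70, 0.0388), and the Direct-78 value passed with all deposited libraries (-1.87, 0.0266), with only the compared groups (-1.25, 0.0403) and with the log2 detected genes as a covariate (-1.90, 0.0322). CYP4A12A was at 0 in 3 of 4 S3-78 livers, with 21.3 CPM in mouse 60, and at 0 in 2 of 3 Direct-78 livers, with 10.8 CPM in mouse 66, while Control-78 ran from 6.17 to 53.7 CPM. Its log2 fold changes of -2.14 and -2.65 did not pass (adjusted p = 0.206 and 0.156), but the S3-78 value was -8.62 and called without mouse 60 (0.00502). All livers then left in the group were at 0, so this size depends on the prior count. The same holds for CYP4A12A values given below without mouse 60 or mouse 66. EGFR overlapped its controls in both groups (393 to 802 CPM in S3-78, 119 to 839 in Direct-78, 519 to 1283 in Control-78). Of the 5 male-biased genes, 5 had a negative log2 value in S3-78 and in Direct-78 under TMM. In Direct-78 EGFR went from -0.53 to -0.06 under RLE and to 0.01 under upper-quartile factors.

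Among the female-biased genes, SULT3A1 changed most, from levels near 0. In Control-78 it was 0, 0.779 and 1.39 CPM (lowest, median, highest), with 12 counts over 6 livers. In S3-78 it was 971, 29.5, 4.77 and 12.2 CPM (1901, 74, 9 and 16 counts), in Direct-78 8.89, 74.2 and 18.9 CPM, and in S3-57 7.27, 0, 1002, 11.8 and 8.26 CPM against 0.53, 2.18 and 5.17 CPM in Control-57. All 4 S3-78 livers, 3 of 3 Direct-78 livers and 4 of 5 S3-57 livers were above every control of their age, and 2 livers, S3-57 mouse 51 and S3-78 mouse 55, were far above the rest. SULT3A1 rose by a log2 fold change of 8.30 in S3-78 (SE 1.52, edgeR, Benjamini-Hochberg adjusted p = 0.000299), 5.39 in Direct-78 (SE 1.46, 0.00687) and 6.39 in S3-57 (SE 1.36, 0.0019). The S3-57 call rested on mouse 51, without which the value was 1.49 (adjusted p = 0.598). Without mouse 55 the S3-78 value was 4.28 and called (0.042), without both S3-78 libraries with high AFP it was 4.67 and not called (0.0789), and without mouse 65 the Direct-78 value was 4.29 and called (0.0432). With the log2 total count as a covariate the calls were lost in S3-57 (3.66, 0.151) and Direct-78 (0.23, 0.982). Over settings the adjusted p ran from 1.3e-05 to 0.0789 in S3-78 and from 0.00387 to 0.982 in Direct-78.

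SULT3A1 was close to absent in the earliest S1 groups. In S1-10 and in S1-32 a single library held 1 count each and the other 5 held none, against 21 counts in the 4 Control-10 livers and 44 in the 6 Control-32 livers, where 1 of 4 and 2 of 6 were also at 0. Scaled for depth, the S1-32 level was 0.0128 of that in Control-32 (95% counting interval 0.000317 to 0.0751) and the S1-10 level 0.03 of that in Control-10 (0.000725 to 0.187), and the intervals cover counting error only. Control-10 mouse 68 held 17 of the 21 counts (10 CPM, against 0, 0.861 and 0.862 CPM in the other 3), so the S1-10 ratio rests on that liver. The edgeR test passed in S1-32 (fitted log2 -5.52, SE 1.74, Benjamini-Hochberg adjusted p = 0.0152; 6 of 6 below the control median) and not in S1-10 (fitted log2 -4.29, SE 1.99, adjusted p = 0.203), and the fitted sizes depend on the prior count. The S1-32 call was lost without Control-32 mouse 75 (-4.68, 0.0681) and with the log2 total count as a covariate (-3.98, 0.251), and the value was -6.59 without S1-32 mouse 22 (called, 0.0235). With all deposited libraries S1-10 passed (-6.16, 0.0189). By median SULT3A1 was ordered S3-78 (20.9 CPM), Direct-78 (18.9), S3-57 (8.26), Control-32 (4.46), Control-57 (2.18), S2-78 (1.7), S1-57 (1.57), S2-32 (1.38), S1-78 (0.954), Control-10 (0.861), Control-78 (0.779), S1-32 (0) and S1-10 (0), each overlapping the next.

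CYP2A4 was 3651, 127, 1246 and 54.1 CPM in S3-78 and 820, 1375 and 122 CPM in Direct-78, against 10.8, 29.1 and 69.3 CPM in Control-78. All 3 Direct-78 livers and 3 of 4 S3-78 livers were above every control, while mouse 60 (54.1 CPM) lay within the control range. It rose by a log2 fold change of 5.13 in S3-78 (SE 1.28, edgeR, Benjamini-Hochberg adjusted p = 0.00501) and 4.41 in Direct-78 (SE 1.28, adjusted p = 0.0111). Without mouse 55 the S3-78 value was 3.71 and not called (0.0556), without both libraries with high AFP it was 1.30 (0.592), and with the log2 total count as a covariate it was 3.42 (0.148). Over settings the adjusted p ran from 9.57e-05 to 0.592. In Direct-78 the total count covariate gave 0.97 (0.879), with a range over settings from 0.000807 to 0.879. CYP2A4 was also high in single livers of groups that did not pass: 1102 CPM in S1-57 mouse 27, 2500 in S1-78 mouse 31 and 2227 in S3-57 mouse 51. In S2-32 it was 616, 216, 299 and 488 CPM in 4 livers and 21.7 and 19.4 CPM in the other 2, against 12.9 to 170 CPM in Control-32, and edgeR did not call it (log2 2.31, SE 1.10, Benjamini-Hochberg adjusted p = 0.157) except without the libraries with high AFP (2.29, 0.0494). In S3-57 (3.30, 0.0705) CYP2A4 was called by DESeq2 (3.47, 0.0146) and without the libraries with high AFP (3.26, 0.011), and in S1-78 (3.60, 0.0867) by DESeq2 (3.73, 0.0118). Mouse 51 carried most of the S3-57 level (group median 104 CPM). Mouse 31 carried most of that in S1-78, whose median of 14.5 CPM was below the 29.1 CPM of Control-78. Neither change against controls is given here without that liver. The libraries with high AFP include none from S2-32, S3-57 or their controls. In S1-10 (-2.29, 0.251) CYP2A4 was called with only the compared groups (-2.36, 0.0203). By median it was ordered Direct-78 (820 CPM), S3-78 (687), S2-32 (258), Control-10 (138), S2-78 (130), S3-57 (104), Control-57 (49.7), S1-57 (46), Control-32 (36.9), S1-10 (34.1), Control-78 (29.1), S1-32 (19.2) and S1-78 (14.5), each overlapping the next.

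Of the CYP3A41 probes, CYP3A41B passed downward in S1-32, as SULT3A1 did, and CYP3A41A passed in no group. The difference between the probes was not tested. In S1-32 CYP3A41B ran from 220 to 769 CPM (median 479), against 485 to 2545 CPM (median 1110) in Control-32, and 3 of 6 livers were below every control. It fell by a log2 fold change of -1.42 (SE 0.49, edgeR, Benjamini-Hochberg adjusted p = 0.027), a call lost without S1-32 mouse 24 (-1.28, 0.0626), without Control-32 mouse 78 (-1.21, 0.0736) and with the log2 total count as a covariate (-1.51, 0.137). CYP3A41A, whose transcript is almost the same, ran from 1047 to 3402 CPM (median 1634) in S1-32 and from 159 to 3278 CPM (median 329) in Control-32, with a log2 value of 1.20 (adjusted p = 0.197) that passed without Control-32 mouse 74 (2.52, 0.00677). In S1-57 CYP3A41B was -1.51 (unadjusted p = 0.00336, adjusted p = 0.118) and did not pass, although 5 of 6 livers were below every control. That same Control-32 liver, left out, brought a call of CYP3A41A in S2-32 (2.28, 0.0206). In S3-57 CYP3A41B was called lower without mouse 51 (-2.06, 0.0312; -1.30 and 0.133 with it). In S3-78 and Direct-78 neither probe was called (CYP3A41A 0.22 and -0.46, CYP3A41B -0.18 and 0.18 on the log2 scale), and S3-78 mouse 55 had the highest values of its group for both (3310 and 2050 CPM).

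Some cell markers were also called in S3-78, Direct-78 and S1-32, where edgeR called 13.3%, 24.4% and 29.1% of all genes. Of 5 hepatocyte markers, edgeR called 0 in S3-78 and 1 lower in Direct-78, and their summed level was 22943 to 40716 CPM (median 33588) and 19828 to 27037 CPM (median 26694), against 32996 to 53301 CPM (median 48821) in Control-78, with none at 0. AFP (the 1 tested gene of its list) was called higher in S3-78 and not in Direct-78, where it was 30.6, 22.9 and 0 CPM. DDX3Y and EIF2S3Y, carried on the Y chromosome, summed to 115, 118 and 140 CPM in Direct-78 against 224 to 353 CPM in Control-78, and edgeR called 2 of 2 lower in Direct-78 and 1 of 2 in S3-78. Of 3 erythroid markers 1 was called lower in each (median log2 -4.55 in Direct-78 and -0.75 in S3-78). In Direct-78 edgeR also called 1 of 2 lymphocyte markers (median -3.98) and 1 of 4 macrophage markers (median -1.13) lower, 1 of 3 cholangiocyte markers higher and 1 lower, and none of 4 pericentral hepatocyte markers (median -1.53). In S1-32 it called higher 2 of 4 macrophage markers (median 1.59), 2 of 4 pericentral hepatocyte markers (median 1.00), 1 of 4 endothelial markers (median 0.62) and 1 of 5 hepatocyte markers (median 0.28), and it called lower 2 of 4 proliferation markers (median -2.39). The part of these markers, and of depth, in the results was not tested, and in bulk tissue fewer cells of a type and less RNA per cell cannot be told apart.

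Comparing continued with stopped DCA at the same week sets groups side by side that differ in length of exposure and in time since it ended. These differences cannot be told apart here. In S2-32, at the end of 32 weeks of DCA, STAT5B was 42.7, 67.4 and 81.3 CPM (lowest, median, highest), and 6 of 6 livers were below every S1-32 liver (157 to 211 CPM). STAT5B was lower by a log2 fold change of -1.46 (SE 0.36, edgeR, Benjamini-Hochberg adjusted p = 0.0165), and CYP2A4 was higher by 3.85 (SE 1.17, adjusted p = 0.0492), in 4 of 6 livers above every S1-32 liver. These were 2 of 10 members called (3.54% of all genes were), 1 higher (2.13%) and 1 lower (1.41%). The CYP2A4 call was lost in 10 of 12 fits without a single library: each of S1-32 mice 19, 20, 21, 22, 23 and 24 (3.71 to 4.03; adjusted p = 0.0735 to 0.108) and of S2-32 mice 39, 40, 41 and 42 (3.45 to 3.93; 0.0687 to 0.111). Both calls were lost with the log2 total count as a covariate, added after seeing the data for this and the comparisons that follow (STAT5B -0.87, 0.232, and CYP2A4 2.82, 0.36). For CYP2A4, RLE factors gave 3.89 (0.052), leaving out the libraries with pancreas markers 4.03 (0.063) and leaving out the major urinary protein genes 3.84 (0.0504).

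In Direct-78, ELOVL3 (0, 0 and 8.11 CPM) was far below S1-78 (42.5 to 9021 CPM, median 5844) and SULT3A1 (8.89, 74.2 and 18.9 CPM) above it (0 to 2.25 CPM), with 3 of 3 livers outside the S1-78 range for both. The log2 fold changes were -10.85 (SE 2.21, edgeR, Benjamini-Hochberg adjusted p = 0.000968) and 4.84 (SE 1.40, adjusted p = 0.0109), 2 of 10 members (24.5% of all genes), 1 higher (5.35%) and 1 lower (19.1%). SULT3A1 lost its call without Direct-78 mouse 65 (3.75, 0.0626), and ELOVL3 was -16.39 without mouse 66, -10.18 without mouse 64 and -10.09 without mouse 65, called each time. Neither was called with the log2 total count as a covariate (ELOVL3 -8.26, 0.0552, and SULT3A1 0.44, 0.962). Without S1-78 mouse 31, the liver with the most AFP, 5 members were called, with CYP2A4 at 4.83 (0.00441) instead of 0.81 (0.646), CYP2J5 at -1.55 (0.0402) instead of -1.31 (0.09) and CYP4A12A at -3.78 (0.039) instead of -3.50 (0.0649). CYP4A12A was also called by DESeq2 (-3.02, 0.0355), without S1-78 mouse 32 (-3.65, 0.0447) and without Direct-78 mouse 66 (-9.47, 0.0369). Leaving out all libraries with high AFP gave calls of CYP2A4 (4.92, 0.00118), CYP2J5 (-1.40, 0.0319) and CYP4A12A (-3.63, 0.0367). Against S3-78, 21 weeks after DCA was withdrawn, edgeR called 0 of 10 members in Direct-78 (5.03% of all genes; 1 at an unadjusted p under 0.05) and DESeq2 called 1, ELOVL3 (-5.15, adjusted p = 0.00848; edgeR -5.55, 0.0619). Leaving out S3-78 mouse 59 brought a call of ELOVL3 (-5.88, 0.0465), and without the libraries with high AFP ELOVL3 was called (-6.33, 0.0466). S3-57 against S1-57 gave 0 of 10 by edgeR (0% of all genes; 2 unadjusted; 0 by DESeq2), with SULT3A1 at 5.41 (adjusted p = 0.101), which was 6.74 and called (0.0424) without the libraries with high AFP.

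Differences between the changes themselves were tested with interaction terms, called at an adjusted p of 0.05 or less. Between Direct-78 and S1-10, each against its own controls, 5 of 10 members differed (33.8% of all genes), and between S3-78 and S1-32 also 5 of 10 (34.2%), in each case STAT5B, CYP2J5, ELOVL3, CYP2A4 and SULT3A1. The difference for CYP2A4 was 6.71 on the log2 scale (SE 1.74, edgeR, Benjamini-Hochberg adjusted p = 0.00283) in the first and 6.67 (SE 1.67, 0.00341) in the second, and for ELOVL3 it was -11.17 (SE 2.39, 0.000525) and -5.80 (SE 1.68, 0.00799). STAT5B differed by -1.75 (SE 0.62, 0.0249) and -1.93 (SE 0.55, 0.00729), and CYP2J5 by -2.39 (SE 0.79, 0.0173) and -1.86 (SE 0.69, 0.0325). SULT3A1 differed by 9.68 (SE 2.41, 0.00213) and 13.82 (SE 2.24, 0.000133), sizes that depend on the prior count because S1-10 and S1-32 held 1 count each. The long-exposure week-78 groups thus differed from the early S1 groups in opposite directions for the male-biased and the female-biased members called. Between S1-78 and S1-10, 1 member differed (4.22% of all genes), CYP2A4 at 5.90 (SE 1.64, adjusted p = 0.0232).

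None of these differences was called with the log2 total count as a covariate, chosen here after seeing the data. Nor were nearly all other genes, with 11 of 2205 called between Direct-78 and S1-10 (745 without the covariate), 0 between S3-78 and S1-32 (754) and 37 between S1-78 and S1-10 (93). Between Direct-78 and S1-10 the values were then 0.84 for STAT5B (0.619), which changed sign, -1.12 for CYP2J5 (0.63), -8.14 for ELOVL3 (0.105), 2.89 for CYP2A4 (0.663) and 3.85 for SULT3A1 (0.663). Between S3-78 and S1-32 they were -0.09 for STAT5B (0.98), -0.72 for CYP2J5 (0.888), -2.50 for ELOVL3 (0.839), 3.47 for CYP2A4 (0.73) and 9.74 for SULT3A1 (0.394). The CYP2A4 difference between S1-78 and S1-10 was 5.08 (0.0897).

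Single libraries moved several of these differences. In the first, STAT5B was not called without Direct-78 mouse 64 (-1.67, 0.063), 65 (-1.57, 0.0517) or 66 (-1.66, 0.0588) or with RLE factors (-1.24, 0.0856), and CYP2J5 was not called without Direct-78 mouse 64 (-2.19, 0.0582) or Control-10 mouse 68 (-2.02, 0.0528). Without Control-10 mouse 68 SULT3A1 was 7.57 (0.0715), without S1-10 mouse 16 it was 11.09 and without Direct-78 mouse 65 it was 8.70, and 3 members were called without mouse 64 or mouse 68. ELOVL3 was -16.72 without Direct-78 mouse 66, -10.50 without mouse 64 and -10.42 without mouse 65, and CYP2A4 was 7.31 without mouse 66, all called. In the second, CYP2J5 was not called without S3-78 mouse 55 (-1.71, 0.0684), S3-78 mouse 59 (-1.55, 0.102) or Control-32 mouse 75 (-1.73, 0.0569). The other values stayed called: STAT5B -2.58 without S3-78 mouse 56, ELOVL3 -8.53 without S3-78 mouse 60, CYP2A4 5.25 without S3-78 mouse 55 and 6.00 without Control-32 mouse 73, and SULT3A1 9.81 without S3-78 mouse 55, 14.89 without S1-32 mouse 22 and 12.95 without Control-32 mouse 75. Without the libraries with high AFP 1 of these 5 was called, SULT3A1 (10.24), and STAT5B (-1.34, 0.118), CYP2J5 (-1.23, 0.188), ELOVL3 (-4.89, 0.0701) and CYP2A4 (2.87, 0.115) were not. The CYP2A4 difference between S1-78 and S1-10 was lost without S1-78 mouse 31 (1.89, 0.542), without Control-10 mouse 68 (5.32, 0.113) or without the libraries with high AFP (1.91, 0.428).

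Other members gained a call in these differences. Between Direct-78 and S1-10, CYP4A12A (-4.27, 0.0523) was called without Direct-78 mouse 66 (-10.23, 0.0169), Control-10 mouse 69 (-4.78, 0.0391), Control-78 mouse 86 (-4.31, 0.0476) or Control-78 mouse 88 (-4.38, 0.0477). It was also called without the libraries with high AFP (-4.18, 0.0343) or with pancreas markers (-4.38, 0.0452). CYP2D9 (-1.85, 0.0714) was called without Direct-78 mouse 66 (-2.98, 0.0119) and without the libraries with high AFP (-1.74, 0.0282). No group in this difference holds a library with high AFP. Between S3-78 and S1-32, CYP4A12A (-3.17, 0.0804) was called without S3-78 mouse 60 (-9.66, 0.00274), Control-32 mouse 73 (-3.78, 0.0409) or Control-32 mouse 74 (-3.58, 0.0498), and CYP3A41B (1.24, 0.179) without Control-78 mouse 86 (1.75, 0.0484).

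With age alone, in mice on water, edgeR called 0 of 10 members at week 32 (1.59% of all genes, 1.09% higher and 0.499% lower), week 57 (3.45%, 2.4% higher and 1.04% lower) and week 78 (3.95%, 2.36% higher and 1.59% lower) against Control-10, with 0 at an unadjusted p under 0.05 and 0 by DESeq2 each time. At week 57 STAT5B was called lower with the log2 total count as a covariate (-1.41, 0.0125, against -0.58 and 0.482 without it). The member with the largest change was CYP2A4, at a log2 value of -2.15 at week 78 (Benjamini-Hochberg adjusted p = 0.339, edgeR). Control-10 holds mouse 68, whose CYP2A4 was 322 CPM and ELOVL3 0.

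ELOVL3 was opposed to CYP2A4 and to SULT3A1 within single livers. The 4 livers with AFP above 500 CPM had ELOVL3 at 54.7 (mouse 27), 42.5 (mouse 31), 10.7 (mouse 55) and 28.6 CPM (mouse 59) and CYP2A4 at 1102, 2500, 3651 and 1246 CPM. High CYP2A4 also occurred at lower AFP: S3-57 mouse 51 (AFP 57.7 CPM) had CYP2A4 at 2227 and ELOVL3 at 88.6 CPM, and Direct-78 mouse 65 (AFP 22.9 CPM) had 1375 and 0 CPM. Over 68 libraries the log2 levels of ELOVL3 and CYP2A4 had a Pearson r of -0.64 and a Spearman rho of -0.67 (permutation p = 1e-05 for both, the smallest that 100000 permutations can give; Benjamini-Hochberg adjusted p = 3e-05 and 4.09e-05 over 45 pairs), and r was -0.62 without the 2 farthest libraries. With each group's mean removed and labels permuted within groups, r was -0.53 (permutation p = 0.00013, adjusted 0.000485) and rho -0.47 (permutation p = 0.00052, adjusted 0.0021), and r was -0.46 without the 2 farthest. ELOVL3 and SULT3A1 had r = -0.66 (permutation p = 1e-05, adjusted 3e-05) and rho = -0.64 (permutation p = 1e-05, adjusted 4.09e-05), with r = -0.69 without the 2 farthest. Within groups r was -0.50 (permutation p = 4e-05, adjusted 0.0003) and rho -0.45 (permutation p = 0.00084, adjusted 0.00252), with -0.49 without the 2 farthest.

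**Figure D3:**
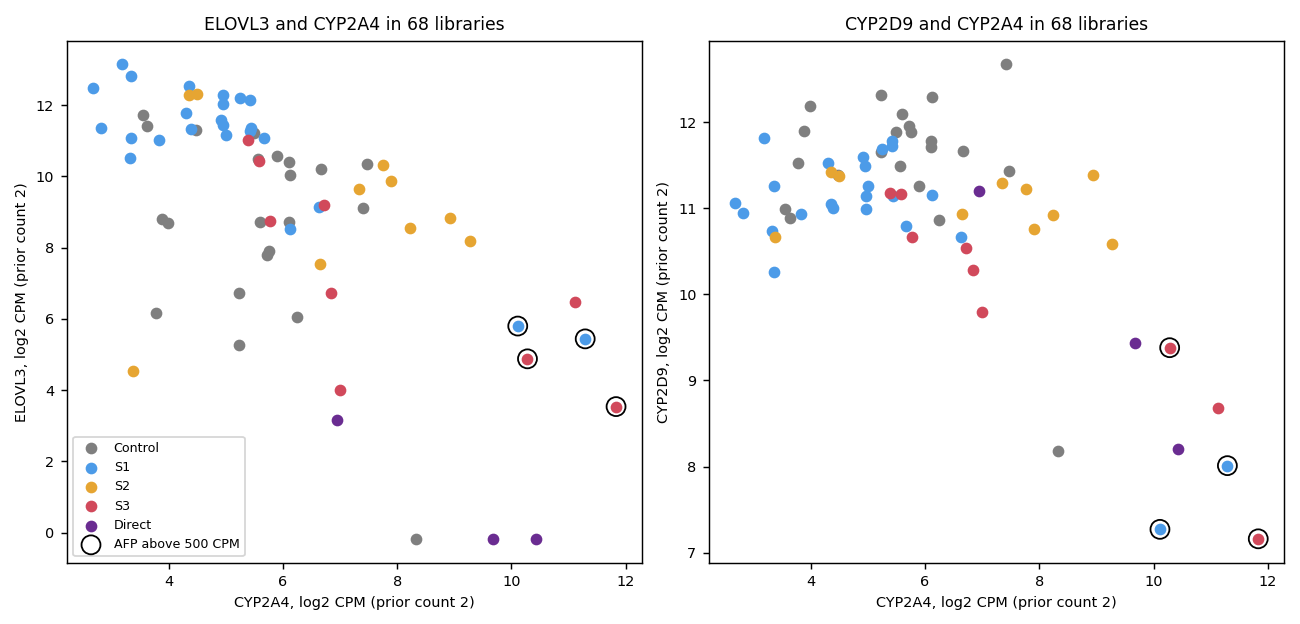
ELOVL3 (left) and CYP2D9 (right) against CYP2A4, as log2 CPM with a prior count of 2, a point for each of 68 libraries: grey for controls, blue for S1, orange for S2, red for S3 and purple for Direct, with a ring where AFP was above 500 CPM. The 6 livers with CYP2A4 above 1000 CPM had ELOVL3 at 0 to 88.6 CPM.

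The CYP3A41 probes did not share this relation. CYP3A41A and ELOVL3 had r = 0.38 (permutation p = 0.00161, adjusted 0.0025) and rho = 0.45 (permutation p = 0.00016, adjusted 0.000379) over 68 libraries, with r = 0.36 without the 2 farthest. Within groups they had r = 0.33 (permutation p = 0.0189, adjusted 0.037) and rho = 0.29 (permutation p = 0.0383, adjusted 0.0689), with r = 0.25 without the 2 farthest. CYP3A41B and ELOVL3 had r = -0.10 (permutation p = 0.399, adjusted 0.417) and rho = -0.14 (permutation p = 0.256, adjusted 0.315), with r = -0.10 without the 2 farthest. Within groups they had r = 0.04 (permutation p = 0.775, adjusted 0.811) and rho = 0.04 (permutation p = 0.777, adjusted 0.814). EGFR, although male-biased, had r = -0.15 (permutation p = 0.195, adjusted 0.244) and rho = -0.10 (permutation p = 0.395, adjusted 0.445) with SULT3A1, and r = -0.06 without the 2 farthest. Within groups EGFR and SULT3A1 had r = -0.18 (permutation p = 0.175, adjusted 0.231) and rho = -0.19 (permutation p = 0.19, adjusted 0.26). With CYP2A4 over all libraries, however, EGFR had r = -0.49 (permutation p = 6e-05, adjusted 0.000129) and rho = -0.51 (permutation p = 2e-05, adjusted 6e-05), and r = -0.50 without the 2 farthest. Within groups these had r = -0.50 (permutation p = 1e-05, adjusted 0.000225) and rho = -0.56 (permutation p = 2e-05, adjusted 0.00015), and r = -0.50 without the 2 farthest.

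ELOVL3 was related to CYP4A12A and CYP2J5, both male-biased, and to STAT5B. CYP4A12A and ELOVL3 had r = 0.79 and rho = 0.71 over 68 libraries (permutation p = 1e-05 for both, adjusted 3e-05 and 4.09e-05, and r = 0.80 without the 2 farthest), and within groups r = 0.68 and rho = 0.63 (permutation p = 2e-05 for both, adjusted 0.000225 and 0.00015, and r = 0.58 without the 2 farthest). CYP2J5 and ELOVL3 had r = 0.72 and rho = 0.70 (permutation p = 1e-05 for both, adjusted 3e-05 and 4.09e-05, and r = 0.69 without the 2 farthest), and within groups r = 0.72 and rho = 0.67 (permutation p = 1e-05 for both, adjusted 0.000225 and 0.00015, and r = 0.73 without the 2 farthest). STAT5B and ELOVL3 had r = 0.54 and rho = 0.68 over all libraries (permutation p = 1e-05 for both, adjusted 3e-05 and 4.09e-05, and r = 0.55 without the 2 farthest), and within groups r = 0.32 (permutation p = 0.00884, adjusted 0.0189) and rho = 0.42 (permutation p = 0.00152, adjusted 0.00427), with r = 0.41 without the 2 farthest.

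STAT5B differed in its relations to the other members. Over 68 libraries it was related to CYP2J5 (r = 0.41, permutation p = 0.0004, adjusted 0.000667, rho = 0.48, permutation p = 5e-05, adjusted 0.000132, and r = 0.41 without the 2 farthest). The same held for CYP4A12A (r = 0.45, permutation p = 0.00013, adjusted 0.000244, rho = 0.53, permutation p = 1e-05, adjusted 4.09e-05, and r = 0.49 without the 2 farthest). It was opposed to CYP2A4 (r = -0.49, permutation p = 4e-05, adjusted 9e-05, rho = -0.51, permutation p = 2e-05, adjusted 6e-05, and r = -0.45 without the 2 farthest). So it was to SULT3A1 (r = -0.54, permutation p = 1e-05, adjusted 3e-05, rho = -0.58, permutation p = 1e-05, adjusted 4.09e-05, and r = -0.57 without the 2 farthest). Within groups r was 0.29 with CYP2J5 (permutation p = 0.0348, adjusted 0.0602), 0.12 with CYP4A12A (permutation p = 0.433, adjusted 0.556), -0.35 with CYP2A4 (permutation p = 0.0139, adjusted 0.0285) and -0.33 with SULT3A1 (permutation p = 0.0518, adjusted 0.0804). The matching rho values were 0.31 (permutation p = 0.0196, adjusted 0.0384), 0.24 (permutation p = 0.0928, adjusted 0.139), -0.32 (permutation p = 0.0175, adjusted 0.0375) and -0.18 (permutation p = 0.231, adjusted 0.306). No relation of STAT5B was found over all libraries with the male-biased CYP2D9 (r = 0.12, permutation p = 0.319, adjusted 0.35, rho = 0.02, permutation p = 0.875, adjusted 0.895, and r = 0.10 without the 2 farthest) or EGFR (r = 0.05, permutation p = 0.719, adjusted 0.719, rho = 0.10, permutation p = 0.433, adjusted 0.475, and r = 0.06 without the 2 farthest). Within groups r was 0.08 with CYP2D9 (permutation p = 0.585, adjusted 0.674) and -0.04 with EGFR (permutation p = 0.697, adjusted 0.765). The matching rho values were 0.03 (permutation p = 0.814, adjusted 0.833) and -0.00 (permutation p = 0.977, adjusted 0.977). With the female-biased CYP3A41A probe STAT5B had, over all libraries, r = 0.51 (permutation p = 1e-05, adjusted 3e-05) and rho = 0.51 (permutation p = 2e-05, adjusted 6e-05), with r = 0.55 without the 2 farthest. Within groups they had r = 0.44 (permutation p = 0.00384, adjusted 0.0096) and rho = 0.51 (permutation p = 0.00022, adjusted 0.00099), with r = 0.43 without the 2 farthest.

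The weakest of the 10 male-biased pairs was CYP4A12A and EGFR, with r = 0.33 (permutation p = 0.00605, adjusted 0.00907) and rho = 0.27 (permutation p = 0.0266, adjusted 0.0374), and r = 0.37 without the 2 farthest. Within groups this pair had r = 0.33 (permutation p = 0.0668, adjusted 0.1) and rho = 0.28 (permutation p = 0.0424, adjusted 0.0734), and r = 0.14 without the 2 farthest. The female-biased pair CYP2A4 and SULT3A1 was related over all libraries (r = 0.51, permutation p = 2e-05, adjusted 4.7e-05; rho = 0.34, permutation p = 0.00469, adjusted 0.00798; r = 0.45 without the 2 farthest) but not within groups (r = 0.27, permutation p = 0.0953, adjusted 0.134; rho = 0.09, permutation p = 0.52, adjusted 0.633; r = 0.22 without the 2 farthest). All libraries share the panel and differ in depth, and these relations are over libraries pooled from 13 groups. Permutations over all libraries shuffled them across groups, so those p-values also take in differences between groups.

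The mean log2 level of the 5 male-biased genes minus that of CYP2A4 and SULT3A1, a measure chosen after the values were seen and without the CYP3A41 probes, gives each liver 1 value. Its group medians were 5.91 in Control-78 (5.07 to 7.00 over 6 livers), -0.33 in S3-78 (-5.58 to 3.42 over 4) and -1.46 in Direct-78 (-4.05 to 1.41 over 3), so neither treated group overlapped the controls of its age. S1-10 (7.23) and S1-32 (7.33) had the highest medians, and S1-32 (6.63 to 7.92) did not overlap Control-32 (3.61 to 6.29). S1-78 (7.02) and S1-57 (5.31) each held 1 liver far below the rest, mouse 31 at -0.87 and mouse 27 at -1.56. So did S3-57, with mouse 51 at -3.90, and Control-10, on water only, with mouse 68 at -2.68. With the CYP3A41 probes included, the medians were 2.73 in Control-78, -1.43 in S3-78 (-5.82 to 2.19) and -2.85 in Direct-78 (-4.92 to -0.49), and S3-78 then overlapped Control-78 (1.90 to 3.40). S1-78 (3.42) then had the highest median, before S1-32 (3.34) and S1-10 (3.27), and S1-32 (3.02 to 3.96) overlapped Control-32 (1.13 to 3.22).

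**Figure D4:**
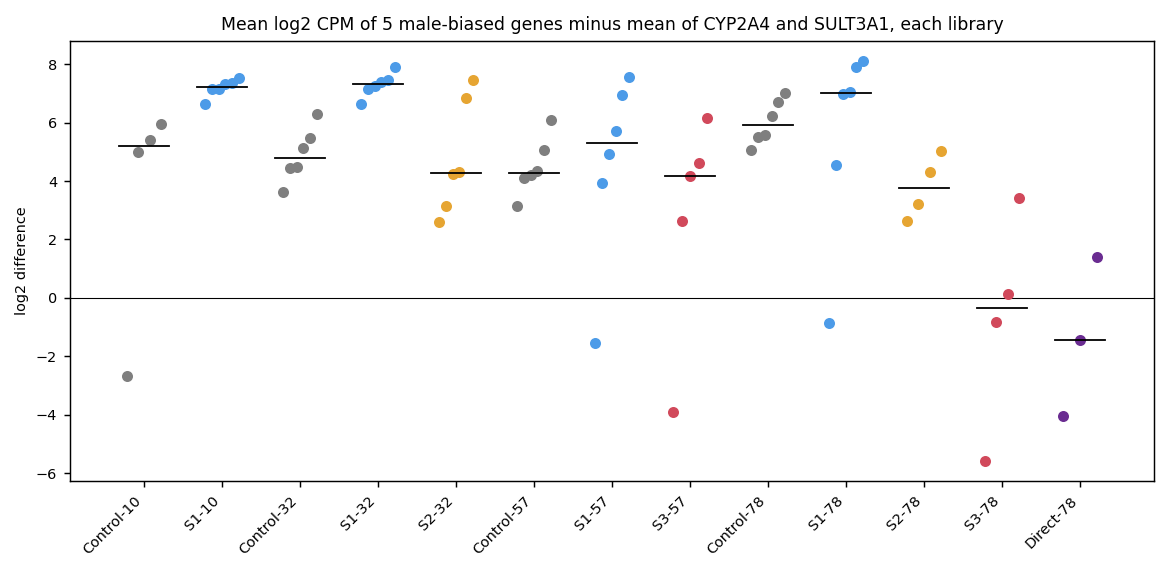
Mean log2 CPM of CYP2D9, CYP2J5, CYP4A12A, ELOVL3 and EGFR minus the mean of CYP2A4 and SULT3A1, by group, with a point for each library and a line at the group median; colours are grey for controls, blue for S1, orange for S2, red for S3 and purple for Direct. Direct-78 and S3-78 lie below Control-78, and the lowest liver is S3-78 mouse 55, at -5.58. The measure was chosen after the values were seen, and with the CYP3A41 probes included S3-78 overlapped Control-78.

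Of the other genes of the pathway, 19 of 26 signalling genes, 5 of 21 other male-biased genes and 7 of 26 other female-biased genes were tested, while CISH, a target of STAT5, was not analysed here. Of the 5 other male-biased genes tested, 4 were called lower in both long-exposure week-78 groups, and the remaining 1 passed in neither. The 4 were MUP3, MUP15 and MUP19, which code for urinary pheromone carriers, and GSTP1, a glutathione transferase. Of all genes 7.48% were called lower in S3-78 and 18.7% in Direct-78, and 0 of the 5 was called higher. The median log2 change of the 5 was -3.11 and -2.93. GSTP1 was 2297 to 4880 CPM in S3-78 and 1820 to 3621 CPM in Direct-78 against 11615 to 27438 CPM in Control-78, a log2 change of -2.57 (SE 0.53, edgeR, Benjamini-Hochberg adjusted p = 0.000892) and -2.93 (SE 0.61, 0.00083), with 4 of 4 and 3 of 3 livers below every control. MUP19 changed by -5.06 (0.00657) and -5.71 (0.00687), MUP15 by -6.82 (0.00647) and -5.70 (0.0262) and MUP3 by -3.11 (0.0112) and -2.93 (0.0246), again below every control in 4 of 4 and 3 of 3. The MUP genes are close relatives whose probe sequences were not used here. Without the libraries with high AFP 1 of 5 was called in S3-78, GSTP1, and MUP15 (-6.01, 0.121), MUP19 (-4.19, 0.125) and MUP3 (-2.22, 0.186) were not. With the log2 total count as a covariate 0 of 5 was called in either group. In S1-32, MUP15 was higher (3428 to 8977 CPM against 135 to 2605 CPM; log2 3.17, SE 1.21, adjusted p = 0.0428), a call lost with all deposited libraries (3.15, 0.086) and with the log2 total count as a covariate (1.13, 0.74).

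The 7 other female-biased genes had a median log2 change of 1.01 in S3-78 (5 of 7 positive) and 1.54 in Direct-78 (6 of 7 positive), and few were called. In S3-78, 1 of 7 was called higher, beside 5.85% of all genes. This was CYP17A1, a steroid hydroxylase, at 4.57 to 601 CPM against 1.67 to 26.4 CPM. Its log2 value was 3.38 (SE 0.99, edgeR, Benjamini-Hochberg adjusted p = 0.0157), with 2 of 4 livers above every control. The value was -1.50 (0.611) without the libraries with high AFP, 3.37 (0.0606) with only the compared groups and 2.81 (0.183) with the log2 total count as a covariate. In Direct-78, 1 of 7 was called higher, beside 5.71% of all genes, and 1 lower, beside 18.7%. The higher gene was CD36, a fatty acid transporter (49.5 ± 29.7 CPM, n = 3, against 12.1 ± 3.92, n = 6). Its log2 value was 2.04 (SE 0.78, edgeR, Benjamini-Hochberg adjusted p = 0.0475), with 3 of 3 livers above every control. Its call was lost with no filter (2.00, 0.0631), with all deposited libraries (1.75, 0.0814) and with the log2 total count (1.45, 0.613) or the log2 detected genes (1.27, 0.295) as a covariate. CYP2A5, the relative of CYP2A4, was called lower in S1-10 (log2 -3.45, SE 0.75, adjusted p = 0.00489; 6 of 6 below every control).

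Among signalling genes, GHR, the growth hormone receptor, was 45.9, 137 and 244 CPM in Direct-78 (lowest, median, highest) against 359 to 904 CPM in Control-78, below every control in 3 of 3 livers (log2 -2.19, SE 0.66, edgeR, Benjamini-Hochberg adjusted p = 0.0135). HNF4A, a transcription factor that maintains hepatocyte identity, was 251 to 893 CPM against 729 to 3143 CPM (log2 -2.19, SE 0.66, adjusted p = 0.0137; 2 of 3 below every control). These were 2 of 19 called lower (18.7% of all genes were) and 0 higher in Direct-78. With the log2 total count as a covariate both calls were lost, at -1.17 (0.563) for GHR and -0.95 (0.663) for HNF4A. In S1-32, JAK2 (0.96, 0.0458) and STAT3 (1.91, 0.0215) were higher and SOCS1, an inhibitor of JAK kinases, lower (-2.64, 0.023). These were 3 of 19, beside 29.1% of all genes. JAK2 was lost under RLE (0.86, 0.0621) and upper-quartile factors (0.72, 0.103), with all deposited libraries (0.93, 0.206) and with only the compared groups (0.92, 0.0555). STAT3 was lost with all deposited libraries (1.90, 0.0703), and with the log2 total count as a covariate all 3 were, at 0.32 (0.745) for JAK2, 0.85 (0.486) for STAT3 and -2.15 (0.228) for SOCS1. IGFBP3 was lower in S1-10 (-2.0, 0.000651) and ESR1, the estrogen receptor, lower in S2-32 (-1.86, 0.0455). With all deposited libraries both were lost, at -1.65 (0.056) and -1.93 (0.153), and ESR1 was also lost with no filter (-1.75, 0.0579) and with the log2 total count as a covariate (-1.68, 0.0564). STAT5A, the paralog of STAT5B, had log2 values from -0.30 to 0.40 in the 9 groups and was never called, nor were SOCS2 and IGF1, which growth hormone induces in liver. IGF1 was 0.99 in S1-32 (adjusted p = 0.0895) and passed without the libraries with high AFP (0.95, 0.0451), none of which is in S1-32 or Control-32. ESR1 was higher in Control-32, Control-57 and Control-78 than in Control-10 (log2 3.05, 3.22 and 2.85; adjusted p = 0.0356, 0.0128 and 0.0241).

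**Figure D5:**
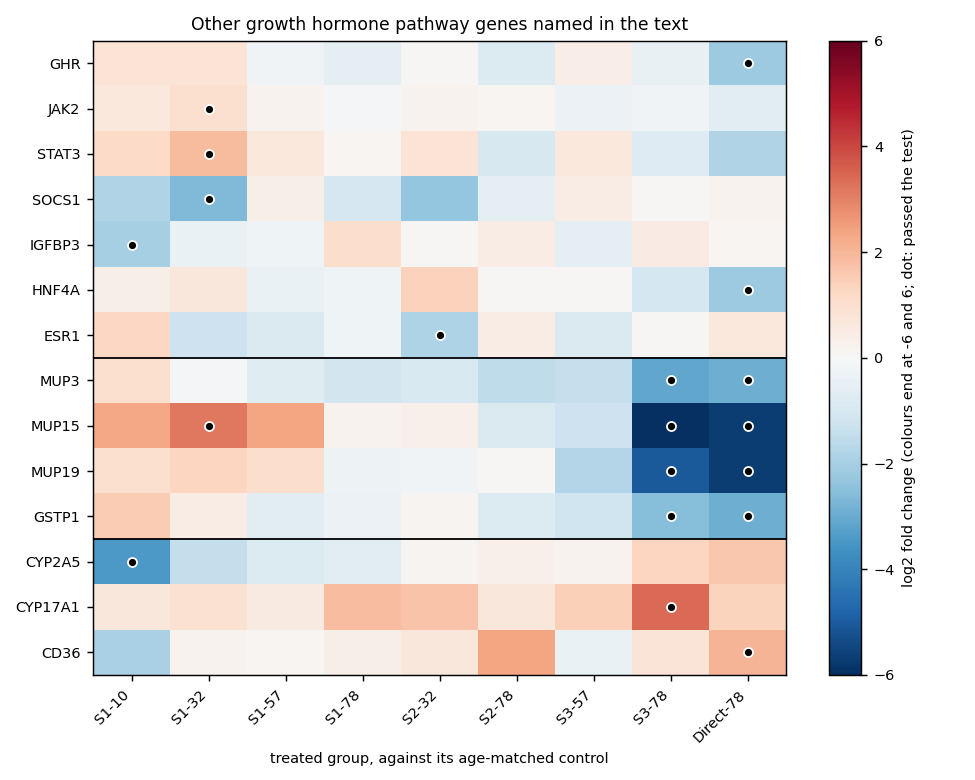
Log2 fold change (colour, ending at -6 and 6) of other pathway genes named in the text, each of which passed the test in at least 1 group, from the signalling, other male-biased and other female-biased lists (top to bottom), in the 9 treated groups against age-matched controls; a dot marks a change that passed. MUP3, MUP15, MUP19 and GSTP1 passed downward in S3-78 and Direct-78.

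The genes most like STAT5B over the 68 libraries, by Spearman's rho, were EFCAB14 (0.84), LGALS8 (0.82) and SWI5 (0.81). Those most like SULT3A1 were CIAPIN1 (0.77), VAMP5 (0.72) and PIK3C3 (0.71).

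MUP8, the most abundant gene, took 8.79% to 35.3% of the counts in Control-78, 0.0786% to 12.7% in S3-78, 0.828% to 23% in Direct-78 and 0.0388% in Control-10 mouse 68. At week 32 it took 9.06% to 44% in Control-32, 4.71% to 10.4% in S1-32 and 2.12% to 17.4% in S2-32. Taking the 5 major urinary protein genes out of the library sizes and the fit, an alternative chosen after seeing the data, changed no call of a member against age-matched controls.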

How the data were processed

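TempO-Seq counts of 78 liver libraries were analysed. The deposited counts table holds raw reads per probed gene, which the authors aligned with Bowtie and counted in Partek (10.0.22.0524). The authors' normalized and filtered tables hold signal, the count plus 1 divided by a median-ratio factor per library, as the deposited values show; they set which 68 libraries and 2205 genes were used. The 10 libraries that the authors left out (total counts 244409 to 658155) were used only in an alternative and in the closing section. Chi-square per degree of freedom was at least 24.9 in 151 pairs of libraries of the same group, so no library repeated another of its group. Pairs from different groups were not compared.

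Counts were fitted in R 4.3.3 with edgeR 4.0.16 and limma 3.58.1 (TMM factors, quasi-likelihood tests, 13 groups in 1 fit, 2-sided, Benjamini-Hochberg adjustment per contrast). Calls needed an adjusted p no greater than 0.05 with more than 1.5 times change, and interactions the adjusted p alone. Levels are CPM scaled with TMM factors, and log2 CPM used a prior count of 2. Correlations were tested with permutations in Python 3.11.15. The steps were tested on simulated data.

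The members and lists were chosen with earlier results of these data known. All 10 members were named. Other pathway genes were named only if called against age-matched controls in at least 1 group, some of which are not reported here, or if GHR, JAK2, STAT5A, SOCS2, CISH or IGF1. Likeness genes, the 3 with the highest Spearman's rho, were named for STAT5B and for members called in at least 3 of the 9 groups.

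Alternatives were RLE and upper-quartile factors, no filter, all deposited libraries, DESeq2 1.42.0, only the compared groups, the log2 total count or the log2 number of detected genes as a covariate, the adjusted p alone, and each library left out in turn. The comparisons that were not against age-matched controls had only RLE factors, left-out libraries and, except for the interactions, DESeq2 of these. Chosen after seeing the data were the log2 total count as a covariate in those comparisons and, in all, leaving out 4 libraries with AFP above 500 CPM, leaving out 4 with exocrine pancreas markers above 1000 CPM, and leaving out the major urinary protein genes.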

Additional observations from a re-analysis of the deposited data

Results flagged for a closer look

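Of 120 pairs of a member and a group of 4 to 10 libraries, 18 held a library far from the others on the log2 CPM scale, by Dixon's ratio of its gap to the group's range; chance flags about 1 in 20 groups, and values of 1 library are not independent over members. Control-10 mouse 68 was far below its group for CYP2D9 (ratio 0.932), ELOVL3 (0.974) and EGFR (0.919). S1-57 mouse 27 was low for CYP2D9 (0.791) and CYP2J5 (0.720) and high for CYP2A4 (0.687). S1-78 mouse 31 was low for CYP2D9 (0.697), and Control-57 mouse 84 was low for the same gene (0.637). S2-32 mouse 41 was low for CYP2J5 (0.913), CYP3A41A (0.738) and CYP3A41B (0.749). S1-10 mouse 17 was low for CYP2J5 (0.644) and CYP4A12A (0.71), and S1-10 mouse 15 for CYP2A4 (0.692). S3-57 mouse 51 was high for CYP2A4 (0.748) and S3-78 mouse 60 for CYP4A12A (1.000). For SULT3A1, S1-10 mouse 16 (1.000) and S1-32 mouse 22 (1.000) held the single count of their groups.

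Changes differed between groups, by an interaction term of the edgeR fit, for 5 members between Direct-78 and S1-10: STAT5B (-1.75 on the log2 scale), CYP2J5 (-2.39), ELOVL3 (-11.17), CYP2A4 (6.71) and SULT3A1 (9.68). They differed for the same 5 between S3-78 and S1-32: STAT5B (-1.93), CYP2J5 (-1.86), ELOVL3 (-5.80), CYP2A4 (6.67) and SULT3A1 (13.82). Between S1-78 and S1-10, CYP2A4 differed by 5.90. With the log2 total count as a covariate none of these differences was called.

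The authors left out libraries whose ranking of genes by expression strayed too far from the average, as a check on quality. In the treated libraries that they left out, 12 member values lay above every kept control of the same age, here as CPM of the library's total. Values below the controls were not counted. SULT3A1 was 40.6 in S2-78 mouse 46, 40.8 in S2-78 mouse 48, 53.2 in S3-78 mouse 57, and 23.2, 173 and 110 in Direct-78 mice 61, 62 and 63, where the highest control was 1.15. SULT3A1 was 0 in S3-78 mouse 58. CYP2A4 was 406 in Direct-78 mouse 63 (highest control 63.3), but 2.32 and 15.2 in Direct-78 mice 61 and 62. EGFR was 1334 in S3-78 mouse 57 and 1690 in S3-78 mouse 58 (highest control 1076). STAT5B was 97.3 in Direct-78 mouse 61 and 94.2 in Direct-78 mouse 62 (highest control 88.6). In the other treated libraries left out STAT5B was 0 to 48.2, with 33.6 in Direct-78 mouse 63 and 0 in S3-78 mice 57 and 58. CYP4A12A was 128 in Direct-78 mouse 62 (highest control 49.9), but 6.95 and 20.2 in Direct-78 mice 61 and 63.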

How the results depend on the processing

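Over all contrasts, 40 of 211 member values called in the edgeR fit were no longer called under another setting, 31 of 1650 values were newly called, and 1 called value changed sign, STAT5B for Direct-78 minus S1-10 (-1.75, and 0.84 with the log2 total count as a covariate). Another 84 values, called under neither setting, also did. With 1 library left out, 34 of 383 called values were lost and 22 of 2300 gained, with no change of sign among called values. Depth limits the low-count members, and Direct-78, S1-32, S3-57 and S3-78 shared no range of total counts with their controls. No paired analysis was possible because each mouse gave 1 library.

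The number of members called was, with the log2 total count as a covariate, 0 of 10 in S1-32 (3 without it), 1 in S1-57 (0), 0 in S3-57 (1), 2 in S3-78 (4) and 0 in Direct-78 (3). The same covariate, added after seeing the data, gave 1 in Control-57 against Control-10 (0), 0 in S2-32 against S1-32 (2), 0 in Direct-78 against S1-78 (2) and 0 in the interactions (5, 5 and 1). Without the libraries with high AFP it was 1 in S2-32 (0), 2 in S3-57 (1), 0 in S3-78 (4), 1 in S3-57 against S1-57 (0), 1 in Direct-78 against S3-78 (0), 5 in Direct-78 against S1-78 (2), 1 for S3-78 minus S1-32 (5) and 0 for S1-78 minus S1-10 (1). S2-32, S3-57 and their controls hold none of these libraries. DESeq2 gave 1 in S1-57 (0), 1 in S1-78 (0), 2 in S3-57 (1) and 1 in Direct-78 against S3-78 (0). With all deposited libraries it was 1 in S1-10 (0) and 5 in Direct-78 (3), with only the compared groups 2 in S1-10 (0) and 5 in S1-32 (3), and with the log2 detected genes as a covariate 5 in Direct-78 (3). For S2-32 against S1-32 (2) it was 1 with RLE factors, 1 without the libraries with pancreas markers and 1 without the major urinary protein genes. The cause was not tested.

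With 1 library left out, the number called ran from 0 to 0 in S1-10, S1-57, S1-78, S2-78, each age comparison and S3-57 against S1-57, 2 to 4 in S1-32, 0 to 1 in S2-32, 1 to 1 in S3-57, 1 to 5 in S3-78, 3 to 4 in Direct-78, 1 to 2 in S2-32 against S1-32, 0 to 1 in Direct-78 against S3-78 and 1 to 5 in Direct-78 against S1-78. For the interactions it ran from 3 to 6 (Direct-78 minus S1-10), 4 to 6 (S3-78 minus S1-32) and 0 to 1 (S1-78 minus S1-10). The 1 call in S3-57 was not always the same member: without mouse 51 SULT3A1 was lost and CYP3A41B was called. The background moved too: of all genes, 216 to 633 were called in Direct-78, 148 to 316 in S3-78, 372 to 887 in S1-32 and 0 to 151 in S1-10, and with the log2 total count as a covariate 11 in Direct-78 and 36 in S1-32. Leaving out the libraries with high AFP left 2 libraries in S3-78, and of all genes 39 were then called there (294 with them), 253 for S3-78 minus S1-32 (754) and 83 for S1-78 minus S1-10 (93).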

Other observations

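Of the 10 libraries that the authors left out, 2 were Control-10 mice and they differed from each other. As CPM of the library's total, mouse 67 had CYP2A4 at 3775, SULT3A1 at 137, AFP at 780, ELOVL3 at 37.8 and CYP2D9 at 314, while mouse 70 had 14.2, 0, 76.5, 2123 and 8300 for the same genes. In the 3 Direct-78 libraries left out, ELOVL3 was 0, 63.8 and 0 and CYP2D9 was 788, 866 and 1311 (mice 61, 62 and 63). In the 2 S3-78 libraries left out, mice 57 and 58, ELOVL3 and CYP2A4 were both at 0 counts.

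Stellate cell and fibroblast markers, of which 5 of 8 were tested with COL1A1 the most abundant, had a summed level of 141 to 1513 CPM in S1-78 (median 438) and 339 to 890 CPM in S2-32 (median 502), against 51.7 to 115 CPM in Control-78 (median 80.5) and 67.4 to 247 CPM in Control-32 (median 142). Of the 5, edgeR called 3 higher in S1-78, 2 higher in S2-32 and 2 higher in S2-78, groups in which edgeR called no member with all kept libraries. Kidney markers were among the lists, and 0 of 4 were tested.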
